A study of Arabidopsis thaliana with 9 samples.

Results

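The genes described are the UDP-glycosyltransferase (UGT) genes of Arabidopsis thaliana, chosen with earlier results of these data known. Membership went by name: every probe set whose single gene symbol in the platform's annotation begins with UGT and a number. This gave 47 genes with 1 probe set each, out of 13350 genes with a probe set of their own and 22746 tested probe sets. All 47 symbols were paired with a locus code in a RefSeq gene table of assembly TAIR10.1. A further 3 probe sets were annotated to a UGT gene together with another gene (UGT73B2 with UGT73B3, UGT89B1 with AT1G73885, and UGT71D1 with AT2G29710) and were left out.

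UGT enzymes move a sugar from a UDP-sugar donor onto small acceptor molecules, among them plant hormones, flavonoids, lignin precursors, thiohydroximates on the way to glucosinolates, and sterols. Adding the sugar usually makes the acceptor more soluble, changes its activity and allows its storage or transport. The number in a UGT name gives the family by protein similarity and the letter the subfamily, and many members lie beside each other on the chromosome.

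The arrays came from 8-week-old plants in the Col-0 background, grown in a greenhouse with equal day and night, whose above-ground parts were taken for RNA. A group of 3 arrays came from stunted plants of an msh1 RNAi transgenic line, 3 from variegated plants of an msh1 RNAi transgenic line, and 3 from wild type, all labelled as biological replicates. RNAi lowers a transcript without removing its gene, and MSH1 is a nuclear gene for a DNA mismatch repair homologue of mitochondria and plastids. The labels do not say which promoter drove the RNAi construct or how many independent transformants were used. MSH1 itself was not analysed here, so the targeted gene gives no check of the labels.

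Values are log2 expression as deposited, with array medians between 3.37 and 3.43, and a difference of 1 on this scale is a factor of 2. Changes carry the standard error (SE) of a linear model fitted with limma over all probe sets and arrays, and a call is a limma p-value, adjusted with the Benjamini-Hochberg method over the 22746 probe sets, under 0.05. The leaf gene RCA, which encodes Rubisco activase, averaged 12.9 ± 0.07 on stunted, 12.8 ± 0.05 on variegated and 12.7 ± 0.17 on wild-type arrays (mean ± SD, n = 3 each), and the anther gene AMS averaged 2.67 on stunted, 2.73 on variegated and 2.67 on wild-type arrays. The root hair expansin genes EXPA7 and EXPA18 averaged between 2.78 and 3.05 in every group. Of the 3 root markers measured, 1 rose in stunted plants against wild type: PYK10, a beta-glucosidase gene, by 1.495 (SE 0.15, adjusted p = 0.000875). It was also higher in stunted than in variegated plants, by 1.74 (adjusted p = 0.0018), and its part in the UGT results was not tested. In whole above-ground tissue, fewer cells of a type and less RNA per cell cannot be told apart.

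More UGT genes lay below the middle signal of the arrays than above it. The mean over the 9 arrays was above 3.42, the median of all tested probe sets, for 18 of the 47 genes and at or below it for 29. By definition, 11373 of the 22746 tested probe sets are above it. The files hold no detection calls, and signals of different probe sets are not transcript amounts, so this split says only how far a probe set stood from the floor of the arrays. The 29 dim genes had means between 2.62 and 3.23. In 22 of them, at least 2 arrays carried exactly the same value, against 7 of the 18 brighter genes. Such repeats occurred in 66.0% of all probe sets at or below the median and in 38.9% of those above it. Changes of the dim members may be compressed, which was not tested.

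**Figure D1:**
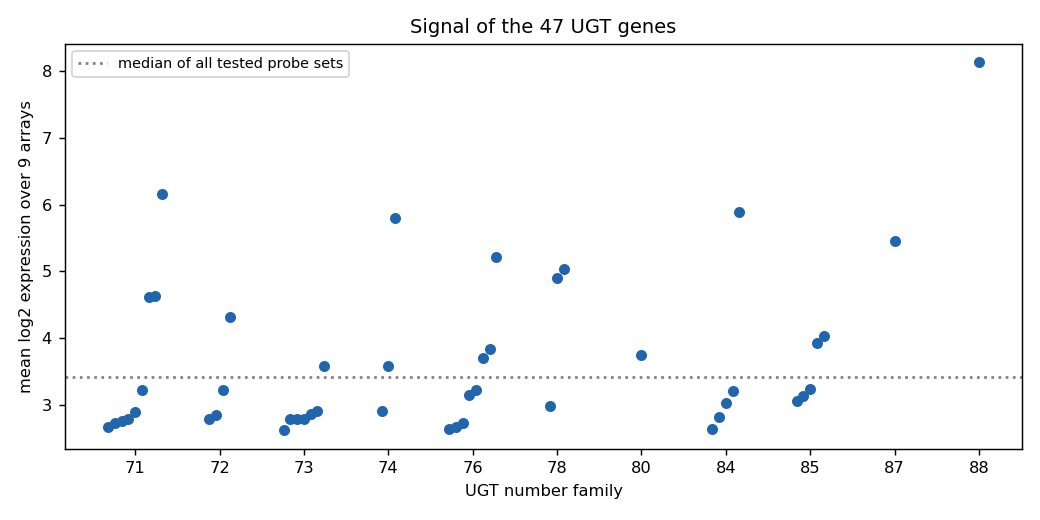
Mean log2 expression over the 9 arrays (vertical axis) of each of the 47 UGT genes, arranged by number family (horizontal axis), with 1 point per gene. The dotted line marks the median of all tested probe sets at 3.42, and 18 points lie above it.

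Each of the 11 number families held at least 1 gene above that median. In family 71 these were 3 of 9 genes (UGT71B1, UGT71C4 and UGT71C5), in family 72 only UGT72E1 of 4, in family 73 only UGT73B1 of 7 and in family 74 UGT74B1 and UGT74D1 of 3. On the wild-type arrays alone, UGT73B1 (mean 3.21) and UGT74D1 (mean 3.11) were below that median. Family 76 had 3 of 8 (UGT76C1, UGT76C2 and UGT76E11), family 78 had UGT78D1 and UGT78D2 of 3, family 84 had UGT84A3 of 5 and family 85 had UGT85A2 and UGT85A4 of 5. Families 80, 87 and 88 had a single member each (UGT80B1, UGT87A2 and UGT88A1), and all 3 were above it.

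In stunted plants, 4 UGT genes rose and 1 fell against wild type, and the other 42 did not pass. The rises were in UGT87A2, UGT74D1, UGT76E11 and UGT73B1, and the fall was in UGT72E1. That is 10.6% of the UGT genes, beside 9.66% of all probe sets (4.91% higher and 4.75% lower), so the share called among UGT genes was near that of the arrays as a whole. At an unadjusted p under 0.05 there were 10 of 47, beside 22.5% of all probe sets. All 5 were among the 18 brighter genes, where 27.8% were called beside 18.1% of all probe sets above the median. The split counts the stunted arrays: UGT73B1 and UGT74D1 averaged 3.21 and 3.11 on wild-type arrays, below 3.42. That share therefore rests in part on the rises it counts. The median change of the 47 genes was 0.03, with 26 above 0 and 21 below, and the median of all probe sets was 0.01. Only UGT87A2 changed at least 2-fold.

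**Figure D2:**
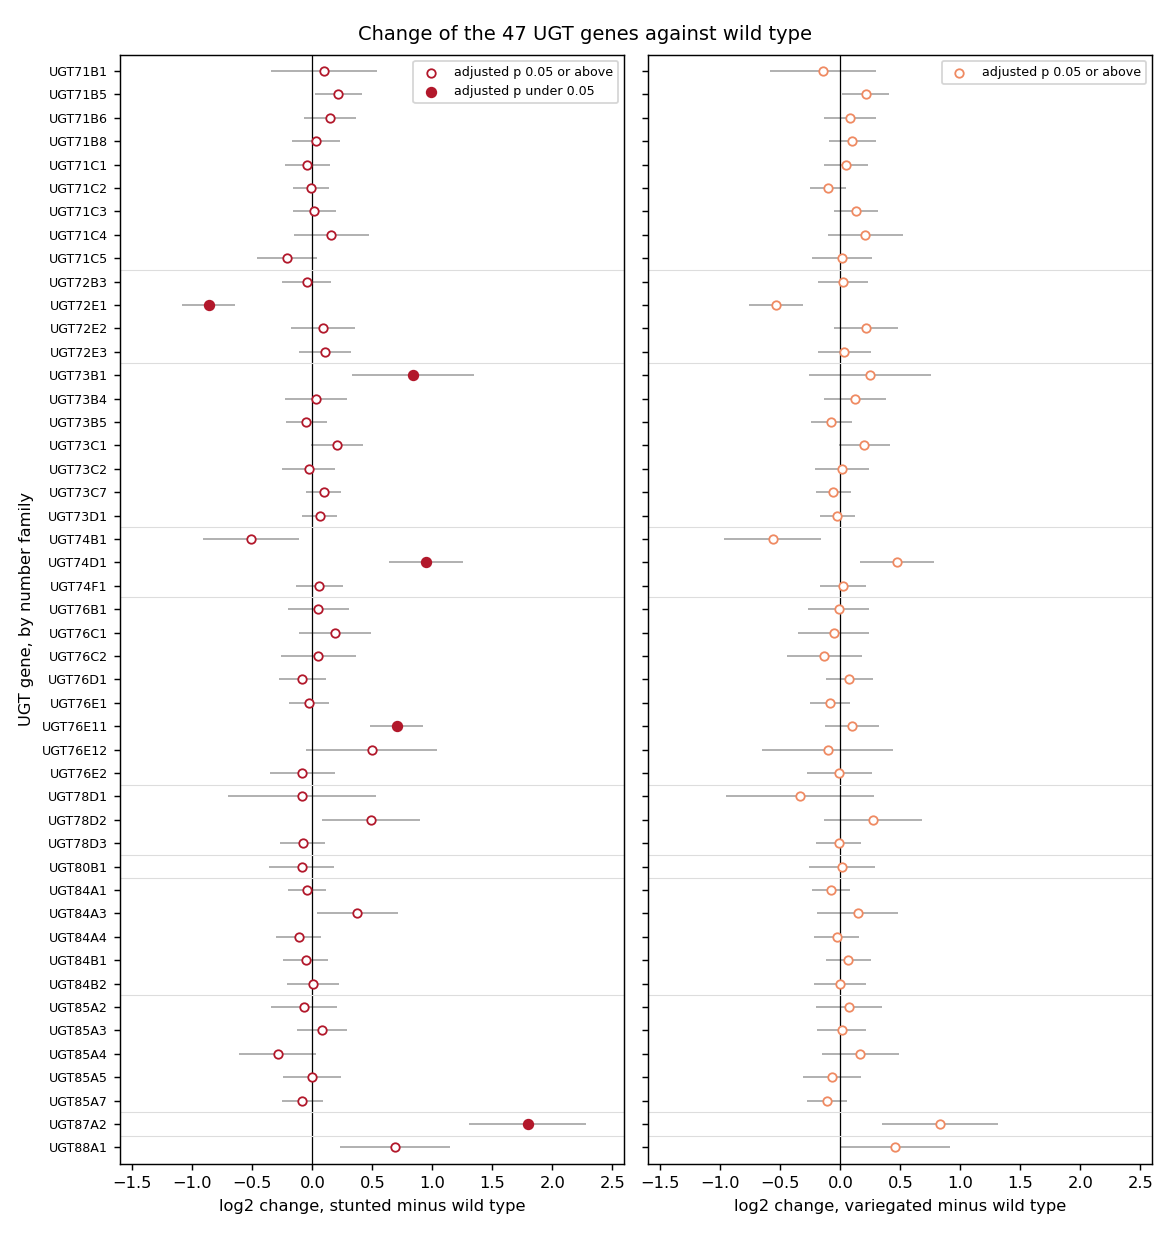
Log2 change against wild type (horizontal axes) of the 47 UGT genes (vertical axis, by number family), with stunted plants on the left and variegated plants on the right. Points are the fitted changes, bars their 95% confidence intervals, and filled points passed at an adjusted p under 0.05, which 5 genes did in stunted plants and none in variegated plants.

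The 5 called genes fell in 5 different number families, each with 1. In family 71 the 9 genes had stunted changes between -0.21 (UGT71C5) and 0.22 (UGT71B5), and none passed. In family 73 UGT73B1 stood at 0.84 and the other 6 genes lay between -0.05 and 0.20. In family 76 the 8 genes ran from -0.08 to 0.70 (UGT76E11), with a median of 0.05, and in family 84 the 5 genes ran from -0.11 to 0.38 (UGT84A3).

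Family 85 had changes from -0.29 (UGT85A4) to 0.08, with 1 of 5 genes above 0. Family 74 held opposite values, 0.94 for UGT74D1 and -0.51 for UGT74B1. Across all families 18 genes had positive changes in both stunted and variegated plants, 12 negative changes in both, and 17 had opposite signs. Both comparisons use the same wild-type arrays, so nothing is read from those counts. None of the 29 dim genes passed in any comparison, and their stunted changes lay between -0.11 and 0.49. Dimness was set by the mean over all 9 arrays, which a rise in stunted plants also lifts.

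UGT87A2 (AT2G30140), known in Arabidopsis for an effect on flowering time, had 6.76, 6.12 and 6.23 on the stunted arrays, 5.18, 5.62 and 5.41 on the variegated arrays and 4.38, 4.35 and 4.997 on the wild-type arrays. No array of one group overlapped another group, and variegated plants lay between the others. In stunted plants it rose by 1.79 against wild type (SE 0.21, 3.47-fold, 95% interval 1.31 to 2.28, adjusted p = 0.00161). The variegated change was 0.83 (SE 0.21, 1.77-fold, 95% interval 0.34 to 1.31), with an adjusted p of 0.152 that did not pass. The stunted minus variegated difference of 0.97 did not pass either (SE 0.21, adjusted p = 0.0629), but passed without wild-type replicate 3 (adjusted p = 0.0463).

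UGT74D1 (AT2G31750) encodes an enzyme that glucosylates auxin and its oxidised form. Its values were 3.93, 4.08 and 4.16 on stunted arrays, 3.45, 3.53 and 3.77 on variegated arrays and 2.90, 3.03 and 3.398 on wild-type arrays. Again the 3 groups did not overlap and the variegated arrays were in the middle, though variegated replicate 1 stood only just above wild-type replicate 3. The stunted change was a rise of 0.94 (SE 0.14, 1.92-fold, adjusted p = 0.00356). In variegated plants the change was 0.47 (SE 0.14, 95% interval 0.17 to 0.78, adjusted p = 0.192). With the difference between 3' and 5' actin probe sets as a covariate it was 0.55 and passed (adjusted p = 0.0266), while the stunted minus variegated difference of 0.47 (adjusted p = 0.131) became 0.14 (adjusted p = 0.771).

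UGT76E11 (AT3G46670) encodes an enzyme reported to glucosylate flavonoids. It had 4.20, 3.98 and 4.21 on stunted arrays, 3.42, 3.66 and 3.504 on variegated arrays and 3.399, 3.33 and 3.56 on wild-type arrays. The stunted arrays stood above all 6 others, while variegated and wild-type arrays overlapped. It rose by 0.70 in stunted plants against wild type (SE 0.10, 1.63-fold, adjusted p = 0.00314). It was also the only UGT gene called between stunted and variegated plants, where it was higher in stunted plants by 0.60 (SE 0.10, 1.52-fold, adjusted p = 0.0237). The variegated change against wild type was 0.10, with a 95% interval from -0.12 to 0.32 that leaves out a change of 2-fold.

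UGT73B1 (AT4G34138) had 3.45, 4.54 and 4.18 on stunted arrays, 3.35, 3.51 and 3.52 on variegated arrays and 3.18, 3.12 and 3.34 on wild-type arrays. Stunted replicate 1 fell within the variegated range, and the other stunted arrays stood apart from all others. Its rise of 0.84 in stunted plants (SE 0.23, 1.79-fold) passed narrowly, at an adjusted p of 0.0486. Without stunted replicate 1 the change was 1.14 (adjusted p = 0.00089). On leaving out any other array it was 0.60 to 0.90 and lost the call, with adjusted p between 0.0743 and 0.142, also for the variegated arrays, which leave the change at 0.84. With the difference between 3' and 5' actin probe sets as a covariate the change was 0.61 (adjusted p = 0.238). It was 0.84 (adjusted p = 0.126) with the stunted and wild-type arrays alone and 0.83 (adjusted p = 0.0501) after quantile normalization.

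UGT72E1 (AT3G50740), which encodes a glucosyltransferase of coniferyl and sinapyl aldehyde in lignin metabolism, was the 1 gene that fell. It had 4.08, 3.69 and 3.99 on stunted arrays, 4.26, 4.22 and 4.26 on variegated arrays and 4.81, 4.71 and 4.84 on wild-type arrays. The groups did not overlap, and the variegated values lay between those of the other groups. In stunted plants it fell by 0.87 (limma SE 0.10, a 1.82-fold decrease, adjusted p = 0.00137). In variegated plants the change was -0.54 (SE 0.10, 1.45-fold, 95% interval -0.76 to -0.32), with an adjusted p of 0.0618 that missed the threshold. It passed without stunted replicate 1 (adjusted p = 0.0353) or stunted replicate 2 (adjusted p = 0.0319), and ran from 0.0248 to 0.227 over all alternatives. The stunted minus variegated difference was -0.33 (adjusted p = 0.146, and 0.0484 without stunted replicate 1).

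**Figure D3:**
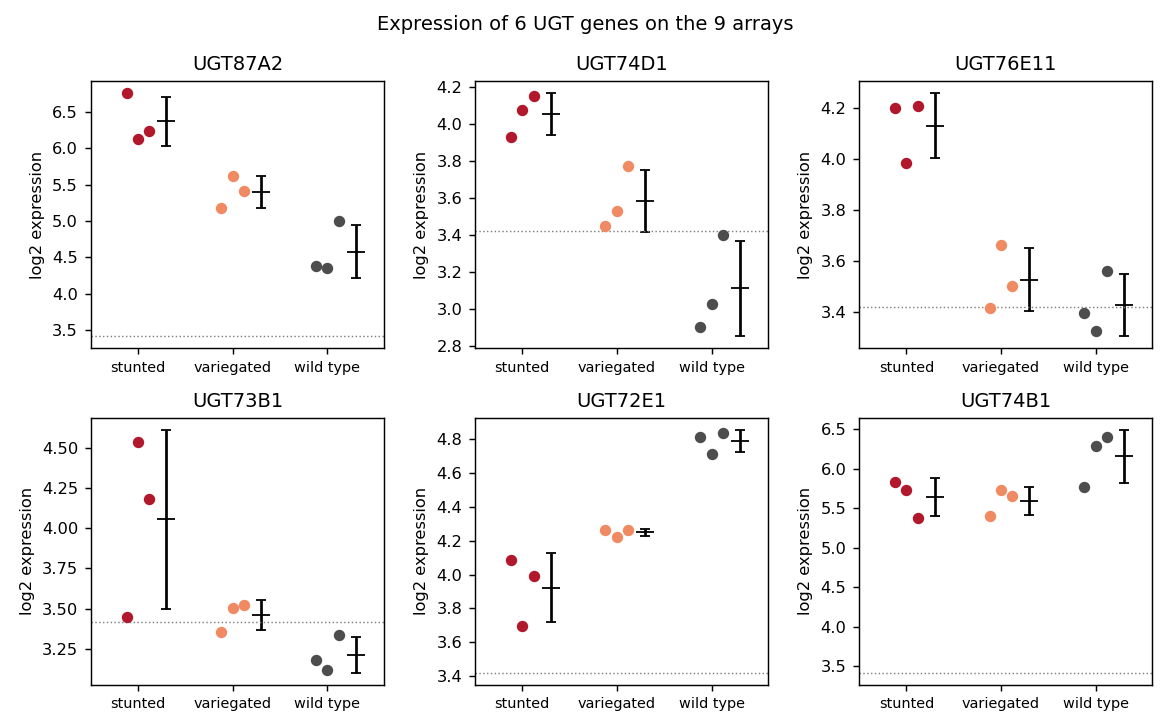
Log2 expression (vertical axes) of 6 UGT genes on the 3 stunted, 3 variegated and 3 wild-type arrays (horizontal axes), with 1 point per array and the group mean ± SD as a bar beside the points. The dotted line is the median of all tested probe sets, and for UGT87A2, UGT74D1 and UGT72E1 the 3 groups do not overlap. Of all probe sets, 23.1% do not overlap between stunted and wild type, 16.8% between variegated and wild type and 17.7% between stunted and variegated. The share with all 3 groups apart is not given, so nothing is read from that pattern.

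UGT87A2, UGT74D1, UGT76E11 and UGT72E1 passed in stunted against wild-type plants without any single array and under each of the other 8 processing alternatives. The difference between the 3' and 5' actin probe sets, a measure of RNA integrity, ran from 1.42 to 1.95 on stunted, 0.95 to 1.45 on variegated and 1.11 to 1.56 on wild-type arrays. With it as a covariate these 4 genes still passed, at adjusted p-values of 0.00721 to 0.0206, and the UGT74D1 change was 0.69. Stunted replicates 2 and 3 had actin differences of 1.59 and 1.95, above every variegated and wild-type array. The covariate therefore overlaps with the stunted group, and this fit cannot tell RNA integrity and phenotype apart. The same covariate left the UGT76E11 difference between stunted and variegated plants at 0.51 (adjusted p = 0.171). That difference also lost its call without stunted replicate 3, variegated replicate 1 or variegated replicate 3 (adjusted p up to 0.107), where its size was 0.55 to 0.59.

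No UGT gene passed in variegated against wild-type plants in the limma fit, where 0.444% of all probe sets were called (0.268% higher and 0.176% lower) and 0.818% of those above the median signal. At an unadjusted p under 0.05 there were 5 of 47, beside 11.6% of all probe sets, namely UGT72E1, UGT87A2, UGT74D1, UGT74B1 and UGT71B5. The median change of the 47 genes was 0.02, with 27 above 0 and 20 below, beside a median of 0.01 for all probe sets. The 95% interval excluded a 2-fold change of signal in either direction for 46 of the 47 genes, with UGT87A2 as the exception. These intervals are not adjusted for the number of genes. For the 29 dim genes they do not exclude a 2-fold change of transcript, since changes near the floor may be compressed. Between stunted and variegated plants 1 gene passed (2.13%, beside 1.74% of all probe sets, 0.87% in each direction, and 3.34% of those above the median signal), and 8 had an unadjusted p under 0.05, beside 15.4% of all probe sets.

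UGT74B1 (AT1G24100), which encodes the thiohydroximate glucosyltransferase of glucosinolate synthesis, had 5.83, 5.73 and 5.38 on stunted arrays, 5.40, 5.73 and 5.65 on variegated arrays and 5.77, 6.29 and 6.41 on wild-type arrays. Wild-type replicate 1 lay inside the stunted range and just above the highest variegated array. The change was -0.51 in stunted plants (SE 0.18, adjusted p = 0.118) and -0.56 in variegated plants (SE 0.18, adjusted p = 0.237), and neither passed. Without wild-type replicate 1 the stunted change was -0.70 and passed (adjusted p = 0.0318), and with array weights it was -0.59 and passed (adjusted p = 0.0353).

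The UGT genes were also grouped by known activity, and each group's calls in stunted plants stand beside 9.66% of all probe sets and 18.1% of those above the median signal. Of 13 measured genes listed under hormone conjugation, 2 rose and none fell, with a median change of 0.05. The risers were UGT74D1 and UGT87A2, which was counted in this list although its documented role is in flowering time. The cytokinin N-glucosyltransferase genes UGT76C1 and UGT76C2 had stunted changes of 0.19 and 0.05, and UGT71C5, which conjugates abscisic acid, had -0.21 (adjusted p = 0.307). The other hormone conjugating genes measured, among them UGT71B6 for abscisic acid, UGT74F1 for salicylate, UGT76B1 for isoleucic acid and salicylate, and UGT84B1 for auxin, were at or below the median signal.

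Of 5 genes listed under flavonoids and anthocyanins, UGT73B1 rose in stunted plants and the others did not pass. UGT76E11, which also rose, was in none of these lists. UGT78D2, the flavonoid 3-O-glucosyltransferase, had 5.32, 5.14 and 4.95 on stunted arrays against 4.39, 4.85 and 4.70 on wild-type arrays. Those groups did not overlap, but the change of 0.49 (SE 0.18) had an adjusted p of 0.14. UGT78D1, which adds rhamnose to flavonols, varied widely within groups, at 4.57 to 5.66 on stunted, 4.45 to 5.18 on variegated and 5.005 to 5.46 on wild-type arrays.

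Of 7 genes listed under phenylpropanoids, UGT72E1 fell in stunted plants and 6 did not pass. Its relatives UGT72E2, a glucosyltransferase of coniferyl and sinapyl alcohol, and UGT72E3 had changes of 0.09 and 0.11 there, with both at or below the median signal. UGT84A3, which makes glucose esters of hydroxycinnamates, had a change of 0.38 (SE 0.15, adjusted p = 0.168). None of the 4 genes listed under xenobiotics and stress (UGT73B4, UGT73B5, UGT73C1 and UGT73C2) passed, and none was above the median signal. The sterol glucosyltransferase gene UGT80B1 had a stunted change of -0.09.

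**Figure D4:**
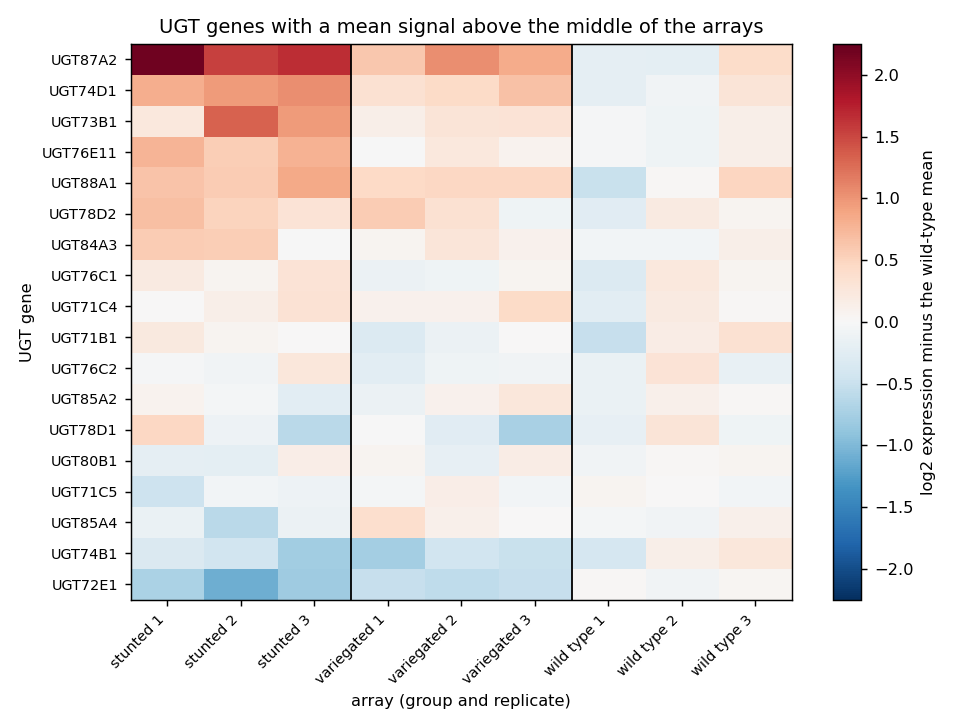
Log2 expression minus the wild-type mean (colour) of the 18 UGT genes with a mean above the median of all probe sets (vertical axis), on each of the 9 arrays (horizontal axis, stunted, variegated and wild type). Genes are ordered by their stunted change, from UGT87A2 at 1.79 to UGT72E1 at -0.87, and for 9 of the 18 the stunted and wild-type arrays do not overlap, beside 35.3% of all probe sets above the median. The mean covers all 9 arrays, so a rise in stunted plants helps a gene into this set.

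UGT88A1 (AT3G16520) gave clear signal on every array, with 8.40, 8.32 and 8.60 on stunted, 8.20, 8.22 and 8.22 on variegated and 7.25, 7.78 and 8.24 on wild-type arrays. The wild-type arrays spread over a wider range than all RNAi arrays, and only the stunted ones lay entirely above them. Its stunted change of 0.69 (SE 0.20, adjusted p = 0.0687) did not pass, and the variegated change was 0.46 (adjusted p = 0.435).

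Counted by arrays that did not overlap, 10 UGT genes were higher and 3 lower in stunted plants than in wild type, which is 13 of 47 beside 23.1% of all probe sets (11.9% higher and 11.2% lower). In variegated plants 4 were higher and 2 lower than in wild type, beside 16.8% of all probe sets (9.36% higher and 7.43% lower), and UGT71B5, UGT73B1, UGT74D1, UGT87A2, UGT72E1 and UGT74B1 were these genes. Between stunted and variegated plants 6 were higher and 3 lower, beside 17.7% (8.11% higher and 9.55% lower). UGT85A4 was one of those lower in stunted plants, at 3.82, 3.37 and 3.84 against 4.35, 4.09 and 3.97 in variegated plants (difference -0.46, SE 0.14, adjusted p = 0.156).

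By gene order in the reference table, 24 of the 47 members formed 10 runs of directly adjacent genes. No gene called in stunted plants was in these runs. UGT genes without a probe set of their own, such as UGT73B2 and UGT73B3, were not counted, so nothing is read from this. UGT76E11 lies near UGT76E12, with 1 gene between them. UGT76E12 had 4.13, 3.29 and 3.34 on stunted arrays, 2.56, 3.21 and 3.21 on variegated arrays and 3.01, 3.03 and 3.25 on wild-type arrays. It did not pass (stunted change 0.49, SE 0.24, adjusted p = 0.273), and its highest value was on stunted replicate 1. In the run UGT84A1, UGT84A3 and UGT84A4, only UGT84A3 was above the median signal, and in the run of UGT71C5, UGT71C4 and UGT71C3 it was UGT71C5 and UGT71C4.

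Few other genes of these pathways had a probe set of their own. Glutathione transferases, which act beside UGT enzymes in detoxification, were measured with 14 genes, of which 1 rose and 2 fell in stunted plants, beside 9.66% of all probe sets called. All 3 were among the 5 of these genes above the median signal, where 18.1% of all probe sets were called. GSTU16 rose by 0.84 (SE 0.11, adjusted p = 0.00273), GSTU20 fell by 1.05 (SE 0.19, adjusted p = 0.00935) and GSTL3 fell by 0.39 (SE 0.08, adjusted p = 0.0139). GSTU16 was also higher in stunted than in variegated plants, by 0.55 (adjusted p = 0.0485). Of 2 glucosinolate genes, BCAT4, an aminotransferase of the aliphatic branch, fell by 0.68 in stunted plants (adjusted p = 0.0269), and AOP3 had -0.03.

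BSMT1, which methylates salicylate and benzoate, was the only gene measured on the salicylate list and fell by 1.22 in stunted plants (SE 0.32, adjusted p = 0.0426). Its variegated change was -1.09 (SE 0.32, adjusted p = 0.194). None of 3 flavonoid genes, 2 phenylpropanoid genes, 5 auxin conjugation genes or the 1 UDP-sugar gene (USP, a UDP-sugar pyrophosphorylase) passed in stunted plants. The flavonoid enzymes CHI and DFR had stunted changes of 0.77 (SE 0.39, adjusted p = 0.297) and -0.46 (SE 0.32, adjusted p = 0.463). Their variegated changes were 1.20 (adjusted p = 0.259) for CHI and -1.09 (adjusted p = 0.199) for DFR. No gene of these lists was called in variegated against wild-type plants. Calls of single genes in these lists, such as BSMT1, BCAT4 and GSTU16, were not examined under the processing alternatives or on leaving out arrays.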

How the data were processed

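The authors deposited log2 expression values for each array. RMA and the affy package are named, with no version, in the submitters' processing notes. How background was handled is not stated there, and normalization between arrays would hide a shift of most transcripts. From 22810 probe sets, 64 controls were set aside and 22746 tested with limma 3.58.1 in R 4.3.3, with 1 mean per group over all 9 arrays, empirical Bayes moderation and 3 contrasts. Tests are two-sided, and 3 arrays against 3 allow an exact permutation p no lower than 0.1, so limma is the test throughout. Arrays carry no read depth, and their number limits the precision.

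Symbols were taken from annotation of the array platform (13513 probe sets with 1 gene, 503 with several), which is old. Every UGT gene may be named. Values on all arrays are given for those called in a comparison and, where fewer than 4 were, for the 4 with the smallest p, and a few further genes were chosen after their values were seen. Members, lists and activity groups were chosen with earlier results of these data known. The lists for cytokinin and abscisic acid metabolism and ABCC transporters had no measured gene. The code was tested on simulated data. Labels call the replicates biological. The alternatives were quantile normalization, median centring, array weights, an intensity trend, a replicate block, a fit to just the 2 groups compared, omission of the dimmest 30% of probe sets, the difference between 3' and 5' actin probe sets as a covariate, and omission of each array in turn.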

Additional observations from a re-analysis of the deposited data

Results flagged for a closer look

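The change of UGT76E11 differed between the RNAi phenotypes: it was larger in stunted than in variegated plants by 0.60 on the log2 scale (limma adjusted p = 0.0237), and all 3 stunted arrays were above all 3 variegated ones. The range of adjusted p over its alternatives was 0.0208 to 0.171.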

How the results depend on the processing

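Numbers of UGT genes called in stunted against wild-type plants were 4 to 7 under the other settings and 4 to 5 on leaving out single arrays, beside 5. The genes changed in part, as UGT73B1 kept its call in 1 of 9 omissions and 5 of 8 other settings. Without stunted replicate 3, wild-type replicate 1 or wild-type replicate 3 the count was 5, of which 4 were shared with the main fit. For variegated against wild type, beside 0 genes, the count was 2 with the replicate block, 1 with the 2 groups alone, 1 with array weights and 1 with the actin covariate, and 0 to 1 on leaving out arrays. For stunted against variegated, beside 1 gene, it was 2 with the replicate block, the intensity trend, array weights or without the dimmest 30%, 0 with the 2 groups alone or the actin covariate, and 0 to 3 on leaving out arrays. The genes gained in variegated plants were UGT72E1 and UGT74D1 under the block (adjusted p = 0.0412 and 0.0473), UGT72E1 with the 2 groups alone or array weights, and UGT74D1 with the actin covariate. Between stunted and variegated plants they were UGT74D1 under the block and UGT87A2 with the trend, array weights or without the dimmest 30%.

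Over all probe sets, the variegated count was 101, and 191 with the replicate block, 206 with the 2 groups alone, 349 with array weights, 186 with the actin covariate and 10 to 206 on leaving out arrays. The stunted count was 2197, and 1321 with the 2 groups alone, 1412 with the actin covariate and 1241 to 2955 on leaving out arrays. Between stunted and variegated plants it was 396, and 940 with the block, 133 with the 2 groups alone, 1028 with array weights, 79 with the actin covariate and 48 to 1404 on leaving out arrays. The causes were not tested. Same-numbered arrays deviated together weakly (r = 0.0045 to 0.28 over 9 pairs), and 8 of 9 arrays correlated best with their own number, but the labels tie the numbers to no shared batch. The difference between 3' and 5' actin probe sets was highest on replicate 3 of each group (1.95 stunted, 1.45 variegated and 1.56 wild type). Whether RNA integrity accounts for the shared deviation was not tested.

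Of 306 single-gene values, 2 changed sign, both for UGT74B1 between stunted and variegated plants, at -0.04 without stunted replicate 1 and -0.045 without variegated replicate 1. Over all omissions that value ran from -0.045 to 0.19. Without stunted replicate 1, UGT73B1 was higher in stunted than in variegated plants by 0.90 (adjusted p = 0.00688). Scaling moved the median of all probe sets by less than 0.1. Dim probe sets limit what can be seen for 29 of the 47 genes.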
